A study of Mus musculus with 6 samples.

Results

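The nucleolar ribosome biogenesis factors are the proteins that transcribe, modify, cut and package ribosomal RNA before a ribosomal subunit leaves the nucleus. A named list of 38 such genes was followed across 6 Affymetrix Mouse 430 2.0 arrays of naive splenic CD8+ T cells. A gene was read from probe sets annotated with its symbol alone, and where it had several the brightest by mean over the 6 arrays was used. That gave 36 of the 38 genes a value. Mrto4 lies only on a probe set shared with other symbols, and Npm3 had no probe set under its symbol in the annotation used here. All 36 passed the filter on low signals, which kept 10838 of 18193 genes, so no member was lost to it, and each member was at or above the array median on all 6 arrays.

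The cells came from Nrdp1+/+ and Nrdp1-/- mice, strain given as C57/BL6, and Nrdp1 (gene Rnf41) encodes an E3 ubiquitin ligase. From each genotype there was 1 array of untreated cells, 1 of cells held for 4 h and 1 of cells held for 8 h with immobilized anti-CD3 at 5 µg/ml plus soluble anti-CD28 at 1 µg/ml, antibodies that engage the T cell receptor complex and its costimulatory receptor. The treatment tag of the stimulated samples names anti-CD28 alone, while the protocol names both antibodies. The labels give no age, number of mice or pooling, and do not say whether the Nrdp1-/- mice lack the gene in all tissues or whether arrays of 1 genotype share animals. With 1 array per genotype and time, a time effect is replicated only over the 2 genotypes and a genotype effect only over the 3 times. All p-values therefore measure the spread between these 6 arrays, which may be technical.

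As a check of the preparations, the CD8 T cell list had 6 of its 7 markers on a probe set, all at or above the array median on every array, with summed signals of 54885 to 66119. Of the other blood cell lists, 2 of 3 CD4 T cell, 1 of 10 myeloid, 1 of 3 NK cell, 2 of 2 erythroid and 0 of 9 B cell markers were below the median on all 6 arrays, while 7 of 9 B cell and 4 of 10 myeloid markers were at or above it on every array. The extraction text names whole colon, but 7 of 10 colon epithelium markers and 3 of 5 smooth muscle markers were below the median on all arrays. Other cells' markers did differ by genotype: the summed signal of 10 myeloid markers was 1745 to 1833 in wild type and 12478, 7985 and 2826 in Nrdp1-/- cells at 0, 4 and 8 h. Of the 9 B cell markers, all but Ighm were lower in Nrdp1-/- at each of the 3 times. Ms4a1 read 2346 to 2930 in wild type and 255 to 403 in Nrdp1-/-, and H2-Aa read 4662 to 5012 and 840 to 917. Ighm, the exception, read 18512 to 20352 in wild type and 22231 to 31757 in Nrdp1-/-. The sum of the 9 B cell markers, most of it Ighm, was 34679, 31035 and 31405 in wild type and 31511, 34266 and 24634 in Nrdp1-/- at 0, 4 and 8 h. Rnf41 itself was lower in Nrdp1-/- cells at each of the 3 times on 1 probe set (161 to 181 against 54.5 to 83.7) and on its brightest (505 to 728 against 437 to 528, mean log2 difference -0.36), while the other 2 probe sets had mean log2 differences of -0.00 and 0.25. The sources used here do not say which part of the gene is deleted, so these probe sets are no firm check of the labels.

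Ribosome assembly begins in the nucleolus, where RNA polymerase I transcribes a long precursor that carries most ribosomal RNAs. Small nucleolar ribonucleoproteins (snoRNPs) of the box C/D and box H/ACA classes guide methylation and pseudouridylation of that precursor, the small subunit processome folds and cuts its 5′ part, and a separate set of factors builds the large subunit. Naive T cells are small and make little protein, and receptor stimulation is known to start a growth phase with nucleolar enlargement before the first division. The transcription factor Myc, which binds the E-box CACGTG, is known to activate many genes of this pathway.

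Nearly the whole module was higher in stimulated than in untreated cells. No array is labelled as cells held for 4 h or 8 h without the antibodies, so stimulation and time in culture cannot be told apart. At 4 h, 33 of the 36 genes were higher than in untreated cells and none lower (limma, Benjamini-Hochberg adjusted p under 0.05), where 8.01% of all 10838 genes tested were called higher and 5.51% lower. The median member change was 0.94 on the log2 scale, against -0.05 over all genes tested, and 16 of 36 members rose by at least 1, a size that 3.46% of all genes reached. At 8 h 33 of 36 were again higher and none lower, against 9.88% of genes called higher and 9.26% lower, with a median of 1.04 against -0.07 over all genes, and 20 of 36 members were up by at least 1, against 3.99% of genes. In 35 of 36 members both 4 h arrays lay above both untreated arrays, which held for 22.5% of all genes. The same was true of both 8 h arrays for 35 of 36 members (24.0% of genes) and of all 4 stimulated arrays together (16.7% of genes), with Wdr12 the exception each time. Among the 7390 genes at or above the lowest member's mean signal, a comparison added after the values were seen, 10.6% were called higher at 4 h and 12.8% at 8 h. The members were chosen with earlier results of these data known. Of other small and large subunit assembly factors, 29 of 51 and 27 of 50 were called higher at 4 h.

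**Figure D1:**
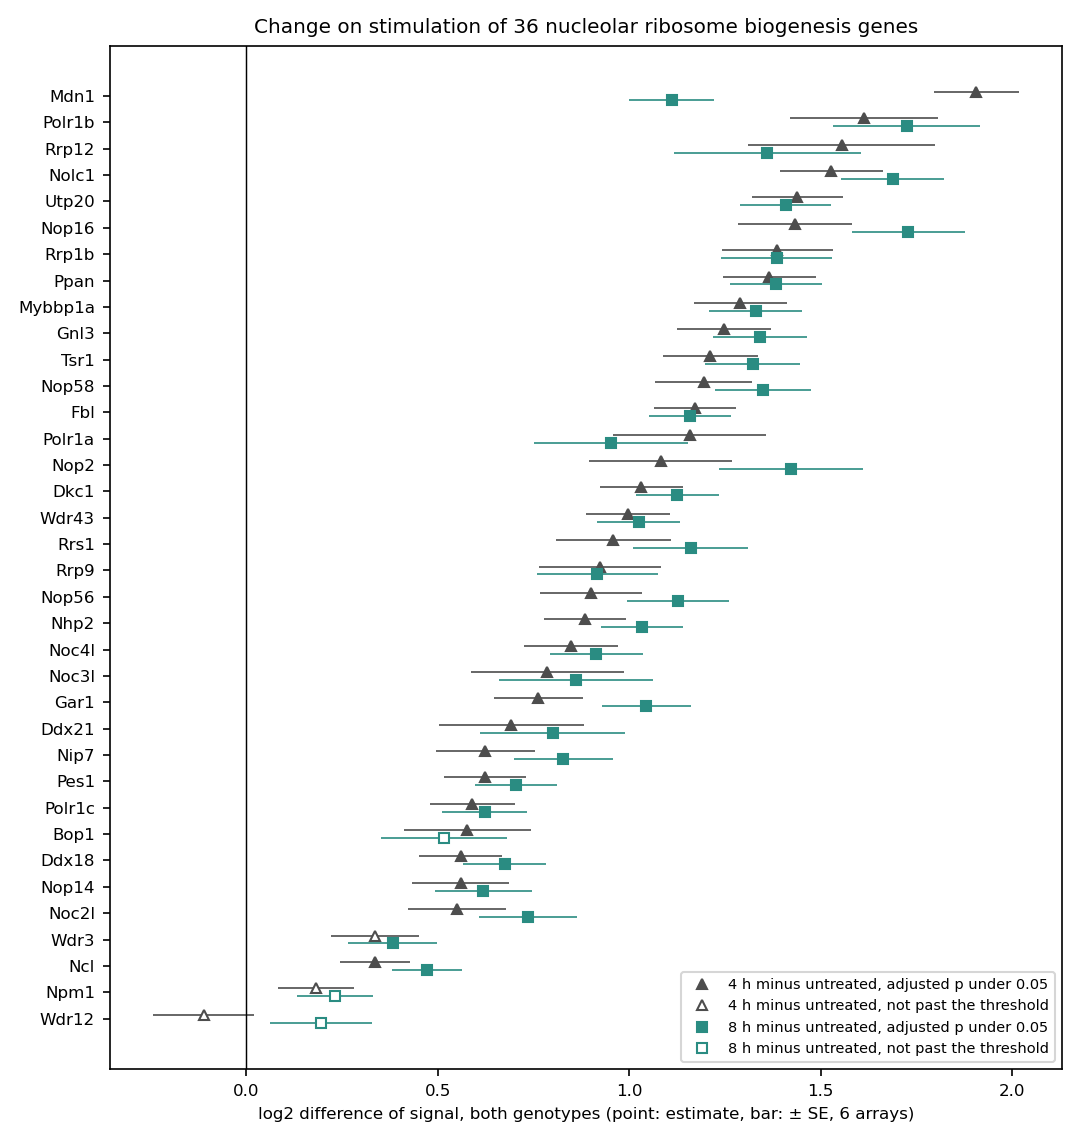
Change in log2(signal + 4.45) of the 36 genes at 4 h and at 8 h against untreated cells, with bars of 1 SE from the limma fit on 6 arrays, filled where the adjusted p was under 0.05, ordered by the change at 4 h. All but Wdr12 are above 0 at 4 h, and Mdn1 has the largest change at 4 h (1.91).

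The number of calls leans on how the spread is estimated, since 2 residual degrees of freedom remain. The fit took each gene's spread partly from genes of like intensity; with 1 common prior spread in its place, 3 of 36 members were called at 4 h (Utp20, Ppan and Mdn1) and 3 at 8 h (Nolc1, Utp20 and Ppan), and all genes called fell to 87 and 108. At an unadjusted p of 0.05 that fit put 32 of 36 members past the threshold at each time, against 22.6% and 26.6% of all genes, and the fold changes do not depend on it. Leaving out each array in turn, 24 of the 33 calls at 4 h and 27 of the 33 at 8 h held every time; those lost without some array were Polr1c, Nop14, Ddx21, Ddx18, Bop1, Noc2l, Noc3l, Nip7 and Ncl at 4 h and Polr1a, Wdr3, Nop14, Ddx21, Noc3l and Ncl at 8 h.

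The genes that moved together were searched for short promoter motifs, in the window from 250 bases before to 50 bases after the annotated start (RefSeq, GRCm38.p6), which was at hand for 31 of the 36. The E-box CACGTG, which reads the same on both strands, stood in 7 of 31 members (22.6%), in 11.9% of the 8846 genes tested that have such a window, and in 7.15% of all 32851 windows. In 6 of the 7 it lay within the first 50 transcribed bases (19.4% of members, 1.94% of genes tested). The 7 sites are shown as 30 bases on the gene's strand with the E-box in capitals, in the order of the genes' change at 4 h:
Mdn1: caacgtgaattccttcacCACGTGtgtgtc
Utp20: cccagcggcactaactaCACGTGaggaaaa
Mybbp1a: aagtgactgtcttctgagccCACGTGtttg
Tsr1: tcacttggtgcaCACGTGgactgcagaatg
Nop2: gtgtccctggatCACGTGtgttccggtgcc
Wdr43: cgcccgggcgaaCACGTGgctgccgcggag
Pes1: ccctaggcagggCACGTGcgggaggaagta
They lie at chr4:32657139-32657168 (Mdn1, + strand), chr10:88826765-88826794 (Utp20, - strand), chr11:72441347-72441376 (Mybbp1a, +), chr11:74898092-74898121 (Tsr1, +), chr6:125131811-125131840 (Nop2, +), chr17:71616220-71616249 (Wdr43, +) and chr11:3963965-3963994 (Pes1, +). The first base of the motif is 39, 38, 41, 25, 18 and 3 bases from the start in Mdn1, Utp20, Mybbp1a, Tsr1, Wdr43 and Pes1, and -60 in Nop2. These are matches to letters, and whether any factor binds there was not measured.

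The ETS core CCGGAAG, searched on both strands, stood in 11 of 31 members (35.5%) and in 21.6% of the genes tested. The 5 holders with the largest change at 4 h, each with the core in capitals, were:
Nolc1: cgcgtgtgggaCCGGAAGcaacttctagat
Ppan: gccgcgtggcaCCGGAAGttggccacgtaa
Tsr1: ctcgggtccgcCCGGAAGtagagttcactt
Nop2: cggtgccgcggCCGGAAGaggcggggcgtt
Nhp2: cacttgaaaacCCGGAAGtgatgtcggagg
These windows are chr19:46075822-46075851, chr9:20888182-20888211, chr11:74898068-74898097, chr6:125131834-125131863 and chr11:51619739-51619768, all on the + strand. The GC box GGGCGG, on either strand, was in 25 of 31 members (80.6%) and 68.3% of genes tested; CCAAT was in 32.3% and 43.0%, and GCATGCG in 1 member (3.23%, Utp20) and 7.69%. A GC box on the opposite strand can share letters with an ETS core. Nop2 alone had the E-box, the GC box and the ETS core all before its start, shown in capitals in the 250 bases at chr6:125131633-125131882 (+ strand):
Nop2 upstream: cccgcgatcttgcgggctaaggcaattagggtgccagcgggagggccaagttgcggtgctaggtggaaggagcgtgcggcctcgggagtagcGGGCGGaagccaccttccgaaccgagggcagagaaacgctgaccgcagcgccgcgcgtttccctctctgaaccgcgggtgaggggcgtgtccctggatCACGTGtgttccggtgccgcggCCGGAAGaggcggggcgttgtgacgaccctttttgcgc

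Signals follow by role, in the deposited linear unit and always with wild type first and Nrdp1-/- after it. All 4 genes of RNA polymerase I and its partners rose at both times, with median changes of 1.22 and 1.14 (log2). Polr1b, the second-largest polymerase subunit, read 188 and 229.6 untreated, 736 and 565 at 4 h, and 611 and 794 at 8 h. All 4 stimulated arrays were above both untreated ones, and Polr1b rose 3.06-fold at 4 h (log2 1.61 ± 0.19 SE, limma adjusted p = 0.000277) and 3.30-fold at 8 h (1.72 ± 0.19, adjusted p = 0.000152). Polr1a, the catalytic largest subunit, read 319 and 208 untreated, 629 and 534 at 4 h, and 458 and 549.9 at 8 h, with log2 changes of 1.16 ± 0.20 and 0.95 ± 0.20. The 8 h change was 0.61 (limma adjusted p = 0.103) without the Nrdp1-/- 8 h array and 0.64 (0.0737) without the untreated Nrdp1-/- array, and the mean of its probe sets changed by 0.46 and 0.35 (adjusted p = 0.547 and 0.642). The groups did not overlap for Polr1a either, although its wild-type array was lower at 8 h than at 4 h. Polr1c, a subunit shared with RNA polymerase III, rose less, by 0.59 ± 0.11 and 0.62 ± 0.11. Mybbp1a, a nucleolar Myb-binding protein, read 2547 and 3144 untreated, 5936 and 8078 at 4 h, and 7234 and 7015 at 8 h, a 2.44-fold rise at 4 h (adjusted p = 4.98e-05).

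The rest of the polymerase I machinery moved less. Of 12 further subunits and initiation factors tested, 3 were called higher at 4 h and 2 at 8 h, and none lower. Their median changes were 0.15 and 0.07, against -0.05 and -0.07 over all genes. The fitted change was above 0 in 10 of the 12 at 4 h and in 9 at 8 h. The risers were Cd3eap and Polr1e, both polymerase I subunits (0.75 ± 0.21 and 0.54 ± 0.14 at 4 h), and Rrn3, the initiation factor that ties the polymerase to the promoter (0.49 ± 0.13 at 4 h, and 0.40 ± 0.13 at 8 h with limma adjusted p = 0.0511). Ubtf, the upstream binding factor of ribosomal gene chromatin, differed by 0.14 ± 0.13 at 4 h (adjusted p = 0.542). RNA polymerase II subunits had 2 of 10 higher at 4 h, RNA polymerase III subunits 2 of 10.

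The snoRNP proteins among the members rose, 8 of 8 at each time. The median change of the 4 box C/D proteins was 1.05 at 4 h and 1.14 at 8 h. Fbl, the fibrillarin methyltransferase, read 4423 and 4808 untreated, 10081 and 10721 at 4 h, and 8956 and 11854 at 8 h. Both stimulated pairs lay far above the untreated pair, and Fbl rose 2.25-fold at 4 h (log2 1.17 ± 0.11, adjusted p = 3.81e-05) and 2.23-fold at 8 h. Its partners Nop58 (1.19 ± 0.13 at 4 h) and Nop56 (0.90 ± 0.13) bind the same guide RNAs. Nop56 read 2282 and 2592 untreated, 4749 and 4343 at 4 h, and 4513 and 6274 at 8 h. The Nrdp1-/- array at 8 h was the highest of the 6 for both Nop56 and Nop58. Rrp9, specific to the U3 particle, rose by 0.92 ± 0.16 at both times.

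Among the box H/ACA proteins and their scaffold the medians were 0.96 and 1.09. Nolc1, a scaffold that gathers snoRNPs in the nucleolus, read 603 and 805 untreated, 1917 and 2124 at 4 h, and 1787 and 2845 at 8 h. It rose 2.88-fold at 4 h (log2 1.53 ± 0.13, adjusted p = 3.12e-05) and 3.22-fold at 8 h (1.69 ± 0.13, adjusted p = 1.21e-05). Dkc1, the pseudouridine synthase, read 3043 and 3639 untreated, 6982 and 6636 at 4 h, and 6751 and 7816 at 8 h, with groups apart and log2 changes of 1.03 ± 0.11 and 1.13 ± 0.11. The core proteins Nhp2 and Gar1 rose by 0.88 ± 0.11 and 0.76 ± 0.12 at 4 h and by 1.03 ± 0.11 and 1.04 ± 0.12 at 8 h. Of 11 other snoRNP proteins and assembly factors, 6 rose at 4 h and 6 at 8 h, among them Znhit6 (1.16 ± 0.14 at 4 h) and Naf1 (1.03 ± 0.14), which act in box C/D and box H/ACA particle assembly.

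**Figure D2:**
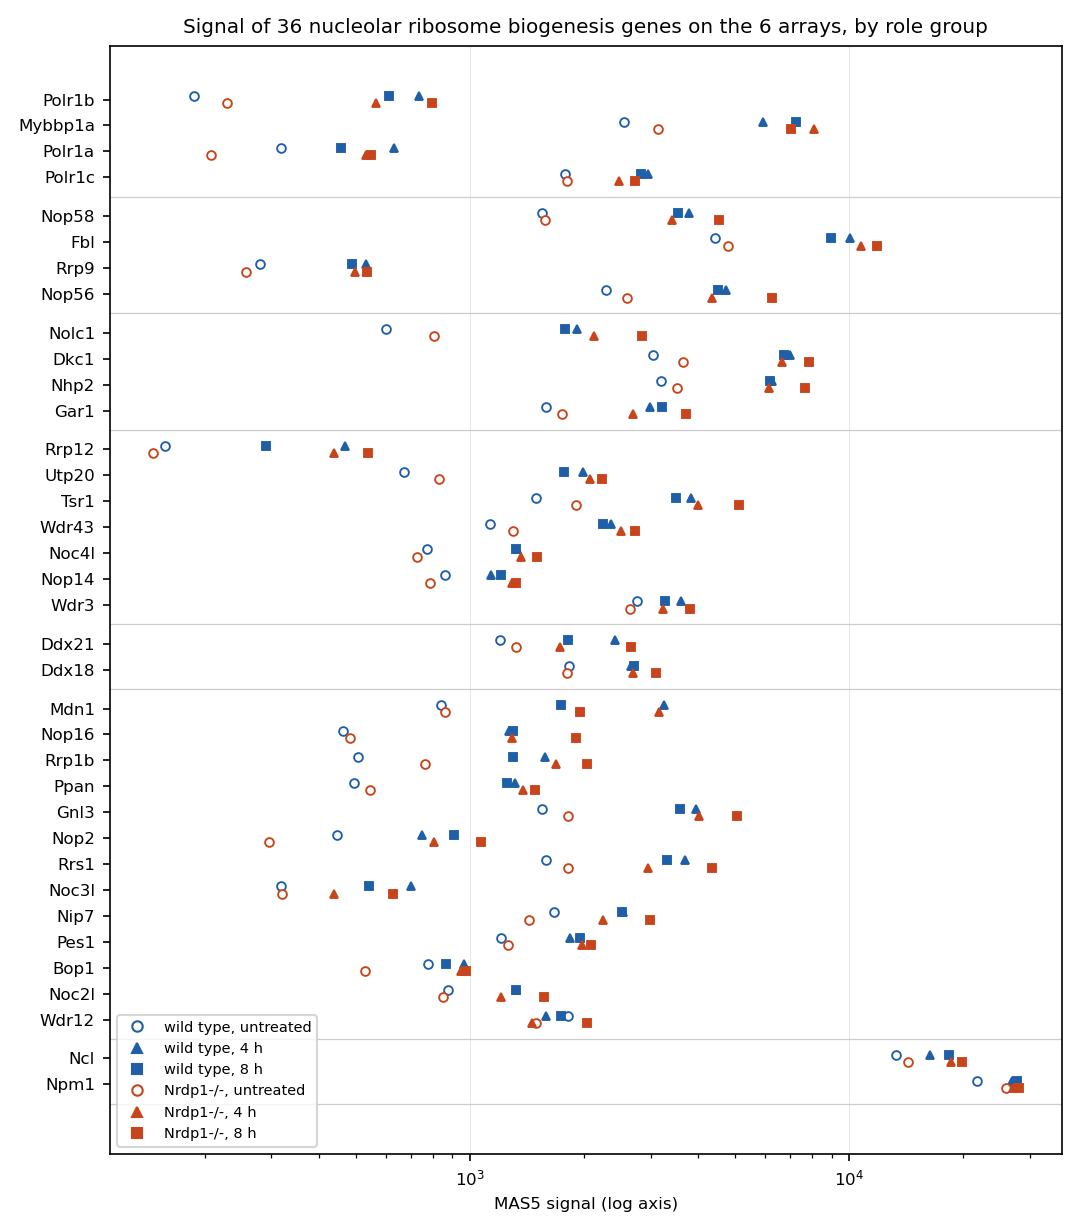
MAS5 signal (log axis) of each of the 36 genes on the 6 arrays, grouped by role, with blue for wild type, red for Nrdp1-/-, open circles for untreated cells, triangles for 4 h and squares for 8 h. Filled symbols lie to the right of the open ones in 35 of 36 genes; Wdr12 is the exception.

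The 7 small subunit processome and pre-40S factors had medians of 1.00 and 1.02, with 6 called higher at 4 h and all 7 at 8 h. Utp20, a large scaffold protein of the processome, read 669 and 830.2 untreated, 1983 and 2075 at 4 h, and 1767 and 2231 at 8 h, a 2.71-fold rise at 4 h (log2 1.44 ± 0.12, adjusted p = 1.75e-05). Rrp12, an export factor of the 40S precursor, read 157 and 146 untreated, 468 and 439 at 4 h, and 291 and 538 at 8 h. Its change at 4 h was 1.55 ± 0.24 and at 8 h 1.36 ± 0.24 (0.88 without the Nrdp1-/- 8 h array), and at 8 h the genotypes stood further apart than at the other times. Tsr1, which acts in late 40S maturation, rose by 1.21 ± 0.12 and 1.32 ± 0.12, and the processome proteins Wdr43, Noc4l and Nop14 by 1.00 ± 0.11, 0.85 ± 0.12 and 0.56 ± 0.13 at 4 h. Wdr3, also of the processome, read 2764 and 2639 untreated, 3608 and 3230 at 4 h, and 3266 and 3796 at 8 h. Its arrays did not overlap either, but the change of 0.34 ± 0.11 at 4 h did not pass (adjusted p = 0.078; 95% interval 0.08 to 0.59), and that of 0.38 ± 0.11 at 8 h did (adjusted p = 0.0396), though not without the Nrdp1-/- 8 h array (0.22, adjusted p = 0.440).

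Of 51 other small subunit factors tested, 29 rose at 4 h and 30 at 8 h, none fell, and the medians were 0.50 and 0.52. Bysl, which is needed for release of the 40S precursor, read 158 and 186 untreated, 536 and 761 at 4 h, and 674 and 997 at 8 h, a log2 change of 1.87 ± 0.16 at 4 h and 2.23 ± 0.16 at 8 h. Nat10, a ribosomal RNA acetyltransferase, rose by 1.47 ± 0.16, and Pwp2 by 1.18 ± 0.15 at 4 h.

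Both nucleolar DEAD-box helicases of the list passed the test with all arrays in. Ddx18 changed by 0.56 ± 0.11 and 0.67 ± 0.11. Ddx21, which acts in ribosomal RNA transcription and processing, read 1199 and 1327 untreated, 2407 and 1730.4 at 4 h, and 1815 and 2665 at 8 h. The genotype with the higher signal thus switched between 4 h and 8 h, and the changes of 0.69 ± 0.19 and 0.80 ± 0.19 had adjusted p = 0.0334 and 0.0138. Without the wild-type 4 h array the 4 h change was 0.28 (limma adjusted p = 0.285), and without the Nrdp1-/- 8 h array the 8 h change was 0.44 (adjusted p = 0.110). A second Ddx21 probe set gave 1.12 and 1.17.

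Large subunit assembly factors were called higher in 12 of 13 at 4 h and 11 of 13 at 8 h, with medians of 0.96 and 1.11. Mdn1, the midasin AAA-type ATPase that strips factors from the 60S precursor, had the largest change of all members at 4 h. It read 842 and 859 untreated, 3242 and 3155 at 4 h, and 1744 and 1947 at 8 h. The genotypes nearly coincided at each time, and Mdn1 rose 3.75-fold at 4 h (log2 1.91 ± 0.11, adjusted p = 9.95e-07) and 2.16-fold at 8 h (1.11 ± 0.11, adjusted p = 6.67e-05). Nop16 read 462 and 482 untreated, 1272 and 1292 at 4 h, and 1301 and 1909 at 8 h. It had the largest change of all members at 8 h, 3.32-fold (1.73 ± 0.15, adjusted p = 2.04e-05). Ppan read 494 and 547 untreated, 1313 and 1382 at 4 h, and 1253 and 1485 at 8 h, rising 2.58-fold at 4 h.

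Gnl3, the GTP-binding protein nucleostemin, read 1550.5 and 1816 untreated, 3950.0 and 4029 at 4 h, and 3582 and 5062 at 8 h, with log2 changes of 1.25 ± 0.12 and 1.34 ± 0.12. Rrp1b read 507 and 762 untreated, 1576 and 1690.3 at 4 h, and 1302 and 2043 at 8 h, changes of 1.39 ± 0.15 and 1.38 ± 0.15. Nop2, a ribosomal RNA methyltransferase, read 448 and 296 untreated, 747 and 807 at 4 h, and 907 and 1068 at 8 h, changes of 1.08 ± 0.19 (0.70 without the untreated Nrdp1-/- array) and 1.42 ± 0.19. In these 3 genes as well all stimulated arrays were above both untreated ones. Rrs1, which helps load the 5S particle, rose by 0.96 ± 0.15 and 1.16 ± 0.15, and Noc3l, Nip7 and Noc2l by 0.79 ± 0.20, 0.62 ± 0.13 and 0.55 ± 0.13 at 4 h. Noc3l fell short without the wild-type 4 h array (0.40, limma adjusted p = 0.262), and at 8 h without the Nrdp1-/- 8 h array (0.59, adjusted p = 0.109).

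The PeBoW complex, made of Pes1, Bop1 and Wdr12, did not change evenly. Pes1 read 1209 and 1261 untreated, 1837 and 1976 at 4 h, and 1952 and 2081 at 8 h, rising by 0.62 ± 0.11 and 0.70 ± 0.11. Bop1 read 774 and 531 untreated, 968 and 949 at 4 h, and 866 and 975 at 8 h. Its change was 0.58 ± 0.17 at 4 h (adjusted p = 0.0413) and 0.52 ± 0.17 at 8 h (adjusted p = 0.0503), and without the untreated Nrdp1-/- array it was 0.27 ± 0.21 at 4 h (adjusted p = 0.566). Wdr12 read 1814 and 1490.5 untreated, 1584 and 1463 at 4 h, and 1741 and 2036 at 8 h. Its groups overlapped, with differences of -0.11 ± 0.13 at 4 h (adjusted p = 0.651, 95% interval -0.40 to 0.18) and 0.19 ± 0.13 at 8 h (adjusted p = 0.345, -0.10 to 0.49). A dimmer Wdr12 probe set gave -0.34 and -0.20. Of 50 other large subunit assembly factors, 27 rose at 4 h and 30 at 8 h, none fell, and the medians were 0.50 and 0.56. Tma16 (1.58 ± 0.16), Rrp15 (1.48 ± 0.15) and Ccdc86 (1.44 ± 0.18) had changes at 4 h as large as those of Nop16 and Ppan.

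The nucleolar chaperones moved little on their brightest probe sets. Ncl, nucleolin, read 13284 and 14296 untreated, 16352 and 18517 at 4 h, and 18391 and 19863 at 8 h, a rise of 0.34 ± 0.09 (adjusted p = 0.0325) and 0.47 ± 0.09 (adjusted p = 0.00499). The 4 h call was lost without any 1 of the 4 arrays of that comparison (adjusted p = 0.0583 to 0.389), and after centring each array on its median (adjusted p = 0.106). Npm1, nucleophosmin, read 21732 and 25944 untreated, 26849.8 and 27032 at 4 h, and 27750.2 and 27992 at 8 h. The groups did not overlap, but the changes of 0.18 ± 0.10 and 0.23 ± 0.10 did not pass (adjusted p = 0.267 and 0.132), with a 95% interval at 4 h of -0.04 to 0.40. Dimmer Ncl probe sets that passed the filter gave changes of 0.38 to 0.55 at 4 h and 0.58 to 1.05 at 8 h. A second Npm1 probe set gave 0.28 and 0.38.

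Other probe sets of the same genes mostly gave the same direction where they had signal, but not always the same size. Of 39 further probe sets, 33 passed the filter, in 24 genes. At 4 h 32 of them were higher and 1 lower, with a median change of 0.93, and at 8 h 31 were higher and 2 lower, with a median of 1.05. Some were larger than the brightest, as for Noc4l (1.32 and 1.48). Others were smaller: 0.16 and 0.14 for Bop1, 0.18 and 0.31 for Nip7, 0.32 and 0.26 for Noc2l, and 0.24 and -0.09 for the dimmest of Ddx18. With the mean of all probe sets of a gene, dim ones included, the 4 h calls of Polr1a, Ddx18, Bop1, Noc2l, Nip7, Mdn1 and Ncl were lost. Mdn1 is not backed by other probe sets, since its 2 further ones stayed dim, with signals from 1.88 to 48.5. The mean over its 3 probe sets changed by 0.23 at 4 h and 0.34 at 8 h (limma adjusted p = 0.834 and 0.706).

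Gene lists outside the module give its changes a frame. Myc read 1117 and 1199 untreated, 4473 and 5854 at 4 h, and 5113 and 6960 at 8 h, a rise of 2.14 ± 0.11 and 2.36 ± 0.11, and of the 10 genes of its network tested it was the only one called higher at 4 h. Mxd4, a Myc antagonist, fell by 0.72 ± 0.13 on the log2 scale. Cytosolic ribosomal proteins are the building blocks that these factors assemble. The list of their genes was incomplete, since its symbol rule dropped every gene named Rpl plus a number with no further letter. Most large subunit protein genes are therefore missing from it. Of its 27 genes tested, 1 was higher at 4 h (Rps25, 0.56 ± 0.11), and the medians were 0.05 at 4 h and -0.03 at 8 h. Mitochondrial ribosomal protein genes were called higher in 18 of 76 at 4 h and 34 of 76 at 8 h, with medians of 0.22 and 0.34, and Mrps28 rose by 1.18 ± 0.13 at 4 h. The RNA exosome, which trims ribosomal RNA ends, had 4 of 13 higher at 4 h and 5 at 8 h, among them its nuclease Dis3 (0.93 ± 0.12 at 4 h). All these lists were read against the same 8.01% and 9.88% of genes called higher.

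**Figure D3:**
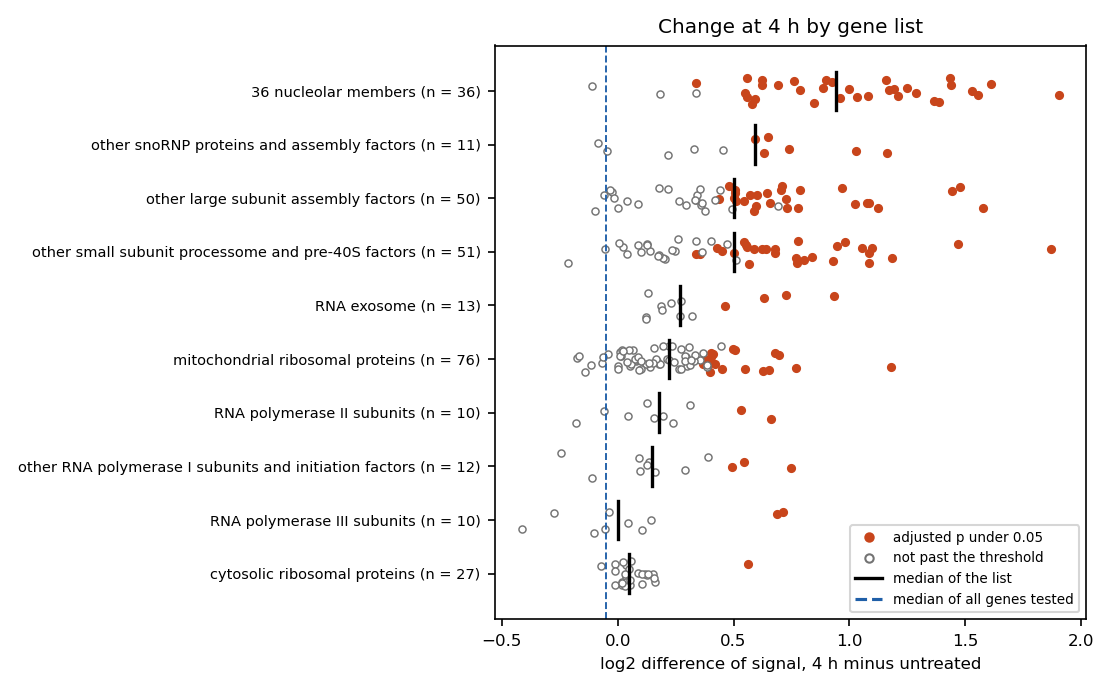
Change at 4 h against untreated cells (log2, additive limma fit) of each gene in the member set and in the other lists, 1 point per gene, filled where the change passed an adjusted p of 0.05 and open where it did not, with a bar at the median; the dashed line is the median of all genes tested. The members' median is 0.94, and those of the other small and large subunit factors are 0.50 and 0.50. That of the listed cytosolic ribosomal proteins, which lack most large subunit proteins, is 0.05.

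The authors loaded equal amounts of RNA and scaled each array to the same overall signal, so these values are shares of the RNA. A rise in total RNA per cell would not show, and fewer cells of a type and less RNA per cell cannot be told apart. Within wild type the median member change from single arrays was 1.03 at 4 h and 0.97 at 8 h. In Nrdp1-/- it was 0.89 and 1.11. The wild-type myeloid marker sum stayed between 1745 and 1833, but single markers moved in opposite directions within it. From untreated cells to 8 h, Lyz1 went from 632 to 843 and Lyz2 from 288 to 452, while the other myeloid markers fell. Among those that fell, Mpo went from 153 to 61.0, Prtn3 from 113 to 32.1 and Cd68 from 260 to 132. The part of cell composition in the member changes was not tested.

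From 4 h to 8 h the module as a whole changed little in the fit over both genotypes, with a median of 0.09 against -0.01 over all genes tested. Mdn1 was the only member called, and it fell by 0.79 ± 0.11 on the log2 scale (limma adjusted p = 0.0404), where 0.0277% of all genes were called lower, 0.0185% higher and 0.0461% in either direction. Its signal dropped in both genotypes, by 0.89 in wild type and by 0.70 in Nrdp1-/-. The Mdn1 call was lost after quantile normalization (adjusted p = 0.0781), without the intensity trend (0.630) and without the genotype term (0.998), and the mean of its 3 probe sets changed by 0.11.

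The genotypes differed in the 4 h to 8 h step when taken as single arrays. In wild type the median member change was -0.071, with 25 of 36 genes lower at 8 h. In Nrdp1-/- cells it was 0.25, with 34 of 36 higher, and Mdn1 and Mybbp1a were the 2 lower. In 24 of 36 members wild type went down while Nrdp1-/- went up, a pattern shown by 21.9% of all genes and by 20.4% of those at or above the lowest member's mean signal. Mybbp1a alone went the opposite way on its brightest probe set, as 27.9% of genes did. A dimmer Mybbp1a probe set went the way of the 24, from 959 to 843 in wild type and from 958 to 1106 in Nrdp1-/-. Among the larger gaps, Ddx21 changed by -0.41 in wild type and 0.62 in Nrdp1-/-, Rrp12 by -0.68 and 0.29, and Noc3l by -0.36 and 0.51. Dimmer probe sets of Ddx21 and Noc3l moved the same ways but by less. That of Ddx21 went from 1599 to 1402 in wild type and from 1468 to 1807 in Nrdp1-/-. That of Noc3l went from 540 to 464 and from 518 to 573.

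**Figure D4:**
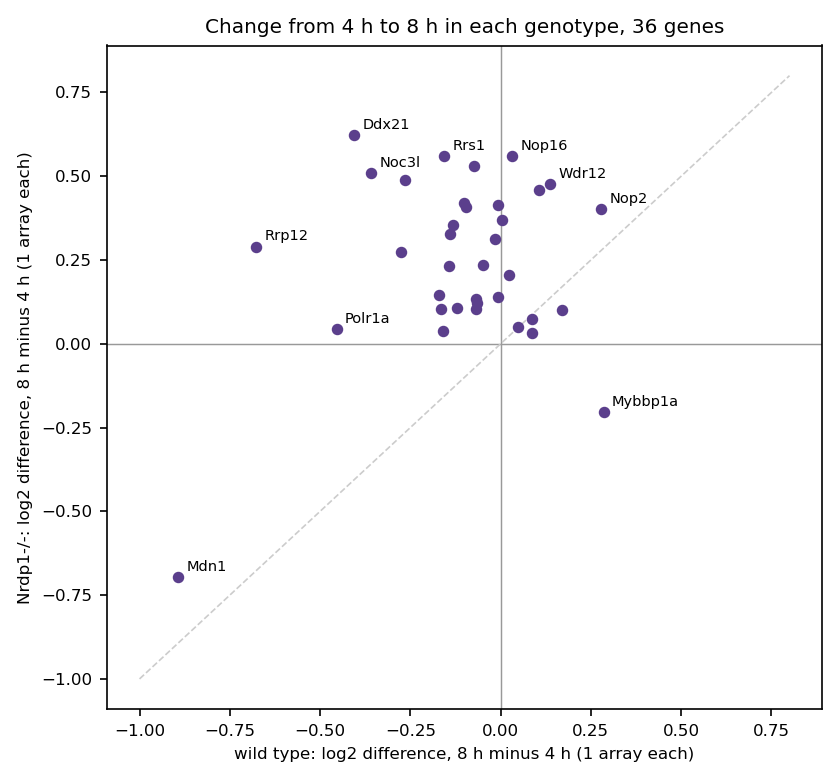
Change from 4 h to 8 h in wild type (x axis) against that in Nrdp1-/- cells (y axis), log2, 1 point per gene and 1 array per value; the dashed line marks equal change. In 24 of 36 genes the point lies left of 0 on the x axis and above 0 on the y axis, and Mdn1 is low on both axes (-0.89 and -0.70).

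A genotype-by-time term for this step, fitted after the values had been seen, called 0 of 36 members after adjustment (limma), where 0.0830% of all genes were called. At an unadjusted p under 0.05 it picked 13 of 36 members, against 9.79% of genes, and 2 of 36 without the intensity trend. The smallest adjusted p was that of Ddx21 (difference 1.03 ± 0.21, adjusted p = 0.0903). The step also depends on scaling. After quantile normalization the medians were -0.08 and 0.29 and 23 of 36 members showed the pattern; after centring each array on its median they were -0.04 and 0.11 and 13 of 36 did, against 12.4% of genes, while the median of all genes in the Nrdp1-/- step moved to -0.17. The 2 arrays of that step had the lowest (61.5, at 4 h) and the highest (68.6, at 8 h) median signal of the 6. Over the same step the 27 listed cytosolic ribosomal protein genes changed by a median of 0.06 in wild type and -0.20 in Nrdp1-/- as deposited. That list lacks most large subunit proteins. Its medians were -0.03 and 0.04 after quantile normalization and 0.09 and -0.35 after median centring. The myeloid marker sum of the Nrdp1-/- arrays went from 7985 to 2826. The part of these in the result was not tested.

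Loss of Nrdp1 was not detected to change any member over the 3 times. The count was 0 of 36 (limma, adjusted), where 5.05% of all genes were called in either direction, and 7 of 36 had an unadjusted p under 0.05, against 16.5% of genes. Without the intensity trend the counts were 0 and 2. The median difference, Nrdp1-/- minus wild type, was 0.09, against -0.01 over all genes, with 27 of 36 members positive. In 12 of 36 the Nrdp1-/- array was the higher at each of the 3 times (17.4% of genes), and in 0 of 36 the lower at each (20.2% of genes).

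The closest to a call were Rrp1b, 0.44 ± 0.12 (adjusted p = 0.0604), Nolc1, 0.41 ± 0.11 (adjusted p = 0.0612), and Tsr1, 0.32 ± 0.10 (adjusted p = 0.115). On their brightest probe sets all 3 were higher in Nrdp1-/- at every time, Rrp1b by 0.58, 0.10 and 0.65 and Nolc1 by 0.41, 0.15 and 0.67 at 0, 4 and 8 h. A dimmer Nolc1 probe set was lower in Nrdp1-/- at 0 h (313 against 446 in wild type) and at 4 h (638 against 944). It was higher at 8 h (829 against 683). The remaining Nolc1 probe set and the dimmer ones of Rrp1b and Tsr1 were higher in Nrdp1-/- at each time. Rrp1b and Nolc1 passed after centring on the array median (adjusted p = 0.0314 and 0.0404). Without either of the 4 h arrays 4 members passed (Nolc1, Rrp1b, Tsr1 and Gnl3), and without either of the 8 h arrays 1 did (Mybbp1a). By time, the median single-array difference over the members was 0.08 before stimulation, -0.03 after 4 h and 0.24 after 8 h, and 34 of 36 members were higher in Nrdp1-/- at 8 h, as were 46.0% of genes. After median centring the 4 h value turned to 0.08 and the 8 h value was 0.17. The myeloid marker sum was higher in Nrdp1-/- at each time, and all B cell markers of the list but Ighm were lower at each time. The B cell sum, most of it Ighm, was lower, higher and lower at 0, 4 and 8 h. The part of these cell types in the differences was not tested.

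Whether the genotype difference changed with stimulation was tested by an interaction term. It called 0 of 36 members after adjustment, against 0.221% of genes, and 2 of 36 at an unadjusted p under 0.05 (limma), against 3.75%. Those were Nop2 (0.76, limma adjusted p = 0.729) and Bop1 (0.61, adjusted p = 1), both lower in untreated Nrdp1-/- cells than in wild type. Without the intensity trend the counts were 0 and 1.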

How the data were processed

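Each sample is 1 Affymetrix Mouse 430 2.0 array. The deposited values are signal intensities on a linear scale that the authors made with MAS5, per the submitters' processing notes, with version and settings not given in the sources used here. The trimmed mean (2% off each side) is 500.0 on each array, so arrays are scaled to a common level. Equal RNA amounts were assayed, per the labels.

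From these, log2(signal + 4.45) was computed, the pseudocount being the 10th percentile of all signals. Fold changes are on that scale and understate those of dim genes. Of 45101 probe sets, 34945 have 1 gene symbol, 932 several and 9160 none in the platform annotation, apart from 64 controls. A gene was kept if at or above the array median on at least 2 arrays. limma 3.58.1 (R 4.3.3) fitted time plus genotype with an intensity trend (2 residual and 8.99 prior degrees of freedom), and p-values were adjusted by Benjamini-Hochberg over all 10838 genes, threshold 0.05. The interaction model leaves 1 residual degree of freedom. The script was tested on simulated data. The number of arrays limits the precision.

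Members and gene lists were chosen with earlier results of these data known. Every member may be named. Those described in full are the largest changes, the members that did not pass and others of each role group; for other lists the genes named are ones called with large changes, or known regulators, and all 7 E-box windows are shown. Alternatives were quantile normalization, median centring, other pseudocounts and filters, the mean of probe sets, no intensity trend, no genotype term, a fit on the 4 h and 8 h arrays only, and removal of 1 array at a time. The genotype-by-time term and the brightness-matched background were added after the values were seen.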

Additional observations from a re-analysis of the deposited data

Results flagged for a closer look

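The step from 4 h to 8 h went opposite ways in the genotypes for many of these genes, in numbers that depend on the scaling. The median single-array change was -0.071 (log2) in wild type and 0.25 in Nrdp1-/- cells, and 24 of 36 genes were lower at 8 h in wild type and higher at 8 h in Nrdp1-/-, against 21.9% of all genes. After median centring 13 of 36 did, against 12.4% of genes. There is 1 array behind each value, so the difference in medians was not tested. The gene-by-gene genotype-by-time term called 0 of 36 after adjustment (limma), with 13 of 36 at an unadjusted p under 0.05, against 9.79% of genes, and 2 of 36 without the intensity trend.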

How the results depend on the processing

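Arrays could not be paired by animal, because the labels do not say whether arrays of 1 genotype share animals. The genotype term of the fit does compare the times within each genotype, and its removal is among the alternatives. The main limits are the spread estimate, the use of 1 array per condition, and the scaling of the Nrdp1-/- stimulated arrays. Without the intensity trend the genes called were 87 at 4 h and 108 at 8 h (1465 and 2075 with it), 0 for 8 h against 4 h (765 at an unadjusted p under 0.05; 5 called with it) and 99 for genotype (547 with it), and the members called were 3 at 4 h, 3 at 8 h and 0 for 8 h against 4 h. The mean of all probe sets of a gene gave 933, 1228 and 3 genes and 26, 28 and 0 members for the 3 time comparisons. Without the genotype term they were 466, 783 and 0 genes and 26, 29 and 0 members. For 8 h against 4 h, 40 genes were called after median centring, 11 with a pseudocount at the 30th percentile and 128 with the stimulated arrays alone, and quantile normalization left 0 members. Median centring gave 2 members for genotype. The cause of these shifts was not tested.

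Leaving out each array in turn gave 791 to 2010 genes, 27 to 34 members and a median member change of 0.86 to 1.12 at 4 h, and 1049 to 2862 genes, 29 to 34 members and a median of 0.91 to 1.16 at 8 h. The lowest counts came without the untreated Nrdp1-/- array, and without the Nrdp1-/- array of 8 h the 8 h counts were 1081 genes and 29 members. For 8 h against 4 h it gave 37 to 124 genes, 1 to 1 members and a median of -0.040 to 0.21, turning negative without the Nrdp1-/- array of 4 h (-0.040) or of 8 h (-0.037). For genotype it gave 558 to 619 genes, 0 to 4 members and a median of -0.0030 to 0.15, the negative value without either 8 h array. Single-gene values under these alternatives were computed for every member tested at 4 h and at 8 h against untreated cells. For 8 h against 4 h they cover Mdn1 alone, and for genotype only some members. The direction of the other members in those comparisons was not followed gene by gene. Among the values computed, Wdr12 turned to 0.20 at 4 h with the mean of probe sets and, leaving out each array, ranged from -0.28 to 0.058 at 4 h (highest without the untreated wild-type array) and from -0.017 (without the Nrdp1-/- 8 h array) to 0.41 at 8 h, and Mdn1 turned to 0.11 for 8 h against 4 h with the mean of probe sets. All other single-gene values computed under these alternatives kept their direction, and 64 of those at 4 h and 51 at 8 h no longer passed the threshold.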
